A study of Arabidopsis thaliana with 36 samples.

Results

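Root transcriptomes of the Arabidopsis thaliana mutant line opt3-2 were compared with those of its wild type, Columbia-0. The comparison takes the table's columns whose names begin with OR (opt3-2 root) or CR (Columbia-0 root) and hold no T, and sums the 3 sequencing runs of each biological replicate. It holds 6 of the study's 12 biological replicates, 3 per genotype, and 18 of its 36 run columns; the other 6 replicates are leaves. Both groups were grown alike: 11 d on plates, then 22 d in aerated hydroponic medium, with 16 h of light and 8 h of dark. RNA came from pools of 3 to 4 plants. The labels name the medium replete, while a treatment text attached to both genotypes mentions 20 µM CdCl2 for 72 h, so a share of cadmium in both groups cannot be told apart from growth without it. The mutation is carried by the whole plant, so changes that begin in the root and changes that follow from the shoot cannot be told apart.

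OPT3 is an oligopeptide transporter of phloem companion cells that is known for loading iron into the phloem, and opt3-2 is a viable T-DNA insertion allele that lowers its transcript. Plants with weak OPT3 function are known to keep their root iron uptake genes switched on although their leaves are rich in iron. Iron and copper genes are therefore a known part of the root response, and a hand-written list of 93 such genes is set aside here as a group. Those of them that also belong to a gene family or annotated group below are still counted there, for example CYP82C4 among the cytochrome P450 genes. The account that follows is ordered by other functions: amino acid and methyl metabolism, phenylpropanoids, nitrogen and ion nutrition, energy, hormones, specialised metabolites and gene families.

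OPT3 (AT4G16370) had 7.7, 6.64 and 8.2 CPM in roots of the Columbia-0 replicates and 6.47, 5.49 and 4.94 CPM in those of opt3-2. CPM stands for counts per 1e+06 counts of a library, here after TMM scaling of library sizes. All opt3-2 replicates were below all Columbia-0 replicates, yet the log2 fold change of -0.41 ± 0.17 (SE) did not pass the test (edgeR adjusted p = 0.125). With a covariate that marks the replicates of run numbers 5 to 7, below called the run-number covariate, it was -0.65 and passed (adjusted p = 0.0394). Nothing in the labels tells whether replicates were grown as separate cultures; p-values therefore reflect only how far these samples spread, which may be technical.

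Of 21692 genes tested in roots, 3377 passed an adjusted p of 0.05 in edgeR's quasi-likelihood test, or 15.6%. Those called higher in opt3-2 roots made up 8.28% of tested genes and those called lower 7.28%, and these shares are the background for each list below. Of the calls, 709 of the 1797 higher calls and 908 of the 1580 lower calls lay under 0.5 on the log2 scale, and the median size was 0.64 for higher and 0.45 for lower calls. Of the called genes 64 belong to the iron and copper list, in which 53 of 89 tested members were higher and 11 lower, and 3313 do not. The list is short and hand-written, so genes outside it may also belong to the iron response. Calls of 2-fold or more upward made up 2.71% of all genes tested, and such calls downward 1.07%. Outside the iron and copper list 541 genes were called at least 2-fold higher, and their summed level went from 13790, 13899 and 14031 CPM in Columbia-0 to 38541, 48996 and 51295 CPM in opt3-2. The 226 genes called at least 2-fold lower outside the list fell from 4867, 4806 and 4280 CPM to 1611, 1951 and 1962 CPM; these sums describe genes chosen for that change. Over all genes the replicate groups did not overlap for 15% of genes with opt3-2 above and 16.5% with opt3-2 below. In bulk roots, fewer cells of a type and less RNA per cell cannot be told apart. The split of calls moved with scaling and with the run numbers: 53.2% of calls were higher in the TMM fit, 30% with library size alone and 67.6% with the run-number covariate.

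Most genes of the methionine cycle and of methylthioadenosine salvage rose, 1 fell and the others were not called. Plants use S-adenosylmethionine to methylate lignin precursors and other acceptors, to make ethylene and to make nicotianamine, a metal chelator. Nicotianamine and ethylene synthesis release methylthioadenosine, which the salvage pathway turns back into methionine. Of 15 tested members 10 were higher and 1 lower, with a median log2 fold change of 1.03, against a median of 0.00 over all genes tested. Their summed level was 7432, 7998 and 7688 CPM in Columbia-0 and 12992, 16155 and 16289 CPM in opt3-2. Over all alternative fits 8 to 10 members were higher.

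SAM1, an S-adenosylmethionine synthetase, had 840, 819 and 788 CPM in Columbia-0 roots and 3694, 4578 and 5052 CPM in opt3-2 roots, the greatest gain in CPM of any called gene. Its log2 fold change was 2.45 ± 0.11 (adjusted p = 8.13e-08). The salvage enzymes named here rose by 1.43 to 2.73 on the log2 scale. MTK, the methylthioribose kinase, went from 47.3, 46.7 and 43.8 to 185, 231 and 253 CPM (2.28 ± 0.11, adjusted p = 1.40e-07). MTI1, the isomerase that follows, went from 30.6, 33.9 and 33.3 to 191, 233 and 227 CPM (2.73 ± 0.10, adjusted p = 1.37e-08). Further down the pathway are DEP1, the dehydratase-enolase-phosphatase, and ARD2, an acireductone dioxygenase, both picked after their values were seen. DEP1 went from 68.7, 65.1 and 64.2 to 154, 191 and 188 CPM, and ARD2 from 67.9, 67.2 and 68 to 281, 353 and 326 CPM. None of these genes had overlapping replicate groups, and opt3-2 replicate 1 was the lowest of the mutant replicates for each of them. MTO3, another S-adenosylmethionine synthetase, went the other way, from 443, 511 and 512 to 366, 378 and 399 CPM (-0.36 ± 0.08, adjusted p = 0.0131). Its call was lost without Columbia-0 replicate 2 (-0.33, adjusted p = 0.0549).

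The changes of the salvage genes were larger in roots than in leaves. For SAM1 the leaf log2 fold change was 0.03, and the root effect minus the leaf effect was 2.41 (adjusted p = 4.49e-06). For MTI1 the leaf value was -0.03 and the difference 2.77. MTO3 had nearly the same value in leaves, -0.41, and the organs differed by 0.05, which missed the threshold (adjusted p = 0.827).

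**Figure D1:**
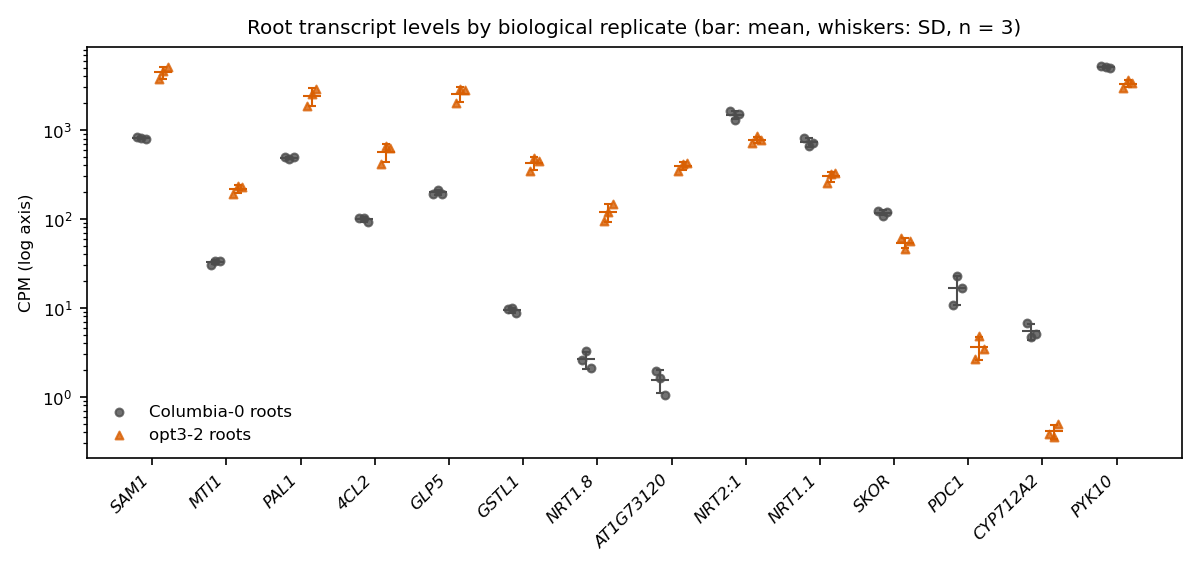
Levels of 14 genes in root replicates, in CPM on a log axis. Points are the 3 Columbia-0 (circles) and 3 opt3-2 (triangles) replicates, bars are means and whiskers SD. For SAM1 the Columbia-0 points lie between 788 and 840 CPM and the opt3-2 points between 3694 and 5052 CPM; replicate groups do not overlap for any gene drawn.

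The hand-written lignin synthesis list showed a similar shift at its entry steps. The general phenylpropanoid pathway deaminates phenylalanine and builds activated cinnamic acids, which feed lignin, coumarins and flavonoids alike. Of 18 tested members 10 were higher and 1 lower (median 0.50), and 9 to 10 were higher under every alternative. The summed level was 4093, 3981 and 3788 CPM in Columbia-0 and 8643, 11970 and 12228 CPM in opt3-2. The members that rose include enzymes that also serve coumarin synthesis, a known part of the iron deficiency response of roots. Genes annotated to lignin biosynthesis, a group not chosen by hand, showed no such shift, with 3 of 22 higher and 3 lower (median 0.01).

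PAL1, a phenylalanine ammonia lyase, had 498, 476 and 491 CPM in Columbia-0 and 1834, 2506 and 2898 CPM in opt3-2 (log2 fold change 2.30 ± 0.15, adjusted p = 1.08e-06). Its paralog PAL2 went from 205, 209 and 219 to 950, 1426 and 1525 CPM (2.62 ± 0.16, adjusted p = 6.23e-07). The ligase 4CL2, which activates coumaric acid, went from 103, 103 and 92.3 to 417, 660 and 632 CPM (2.52 ± 0.15, adjusted p = 6.11e-07). Some later steps were picked after their values were seen. C4H, cinnamate 4-hydroxylase, rose by 1.52 ± 0.12, C3H1 (CYP98A3), which hydroxylates coumaroyl esters, by 1.39 ± 0.13, and CCOAOMT1, a caffeoyl-CoA methyltransferase that uses S-adenosylmethionine, by 1.28 ± 0.12 on the log2 scale. The last steps toward monolignols and their polymerisation did not pass the test: CCR1 had 0.05, CAD4 0.07, CAD5 0.11, COMT1 -0.01, and the laccases LAC4 and LAC17 -0.27 and -0.14. FAH1, ferulate 5-hydroxylase, which leads to syringyl lignin, fell from 78.6, 90.3 and 68.2 to 31.7, 42.7 and 51.5 CPM (-0.91 ± 0.15, adjusted p = 0.00205). In leaves FAH1 was higher in opt3-2 (1.17), and the difference between organs was -2.09 (adjusted p = 9.07e-05). GLP5, a germin-like protein outside the list, rose with the largest gain after the iron uptake genes and SAM1, from 192, 212 and 192 to 1984, 2908 and 2774 CPM (3.69 ± 0.14, adjusted p = 2.38e-08).

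The 250 bases before the annotated start of 4 of these genes are given because the genes rose together; they are RefSeq sequence of TAIR10.1, read in the direction of the gene. Capitals mark a W-box (TTGACC or TTGACT), the letters known to be bound by WRKY factors, or an AC element, spelled ACCTACC in its first form, ACCAACC in the next and ACCTAAC in the last, known from phenylpropanoid promoters as a MYB target. Both strands were searched, and the AC element was added after the data had been seen. PAL1 is chr2:15560756-15561005 (minus strand), PAL2 chr3:19747115-19747364 (minus strand), 4CL2 chr3:7457405-7457654 (minus strand) and CCoAOMT1 chr4:16310159-16310408 (plus strand).
PAL1: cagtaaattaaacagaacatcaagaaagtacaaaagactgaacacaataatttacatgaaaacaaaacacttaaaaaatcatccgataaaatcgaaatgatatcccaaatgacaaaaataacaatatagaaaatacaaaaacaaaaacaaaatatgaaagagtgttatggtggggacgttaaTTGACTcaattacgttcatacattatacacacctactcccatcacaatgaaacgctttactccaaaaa
PAL2: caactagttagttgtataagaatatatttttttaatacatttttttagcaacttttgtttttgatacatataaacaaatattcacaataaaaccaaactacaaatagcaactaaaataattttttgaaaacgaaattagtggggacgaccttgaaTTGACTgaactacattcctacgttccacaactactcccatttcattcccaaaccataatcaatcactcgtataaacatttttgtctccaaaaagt
4CL2: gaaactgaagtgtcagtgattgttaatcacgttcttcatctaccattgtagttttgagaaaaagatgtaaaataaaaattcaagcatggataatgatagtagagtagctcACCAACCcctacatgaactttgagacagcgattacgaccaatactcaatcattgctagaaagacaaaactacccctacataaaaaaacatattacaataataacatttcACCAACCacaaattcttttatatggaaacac
CCoAOMT1: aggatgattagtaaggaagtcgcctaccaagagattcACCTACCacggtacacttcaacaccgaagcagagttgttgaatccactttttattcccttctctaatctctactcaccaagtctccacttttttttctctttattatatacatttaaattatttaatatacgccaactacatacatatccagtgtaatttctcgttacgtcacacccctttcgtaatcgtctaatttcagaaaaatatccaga
PAL1 and PAL2 hold a W-box at positions -68 and -95 from the start, 4CL2 holds AC elements at -140 and -31 in a window that overlaps the neighbouring gene AT3G21250, and CCoAOMT1 holds one at -213. Of the 18 lignin genes 7 hold an AC element, 4 of them among the 11 called ones, against 6.12% of 26709 windows of the same length before all protein-coding genes. The W-box stands before 5 of the 18 lignin genes and before 28.5% of all genes. In the methionine list 1 of 15 windows holds an AC element and 3 hold a W-box. The G-box, the abscisic acid response element core, site II and P1BS were searched as well and stand before 1, 2, 1 and 1 of the lignin genes. These are matches of letters only.

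**Figure D2:**
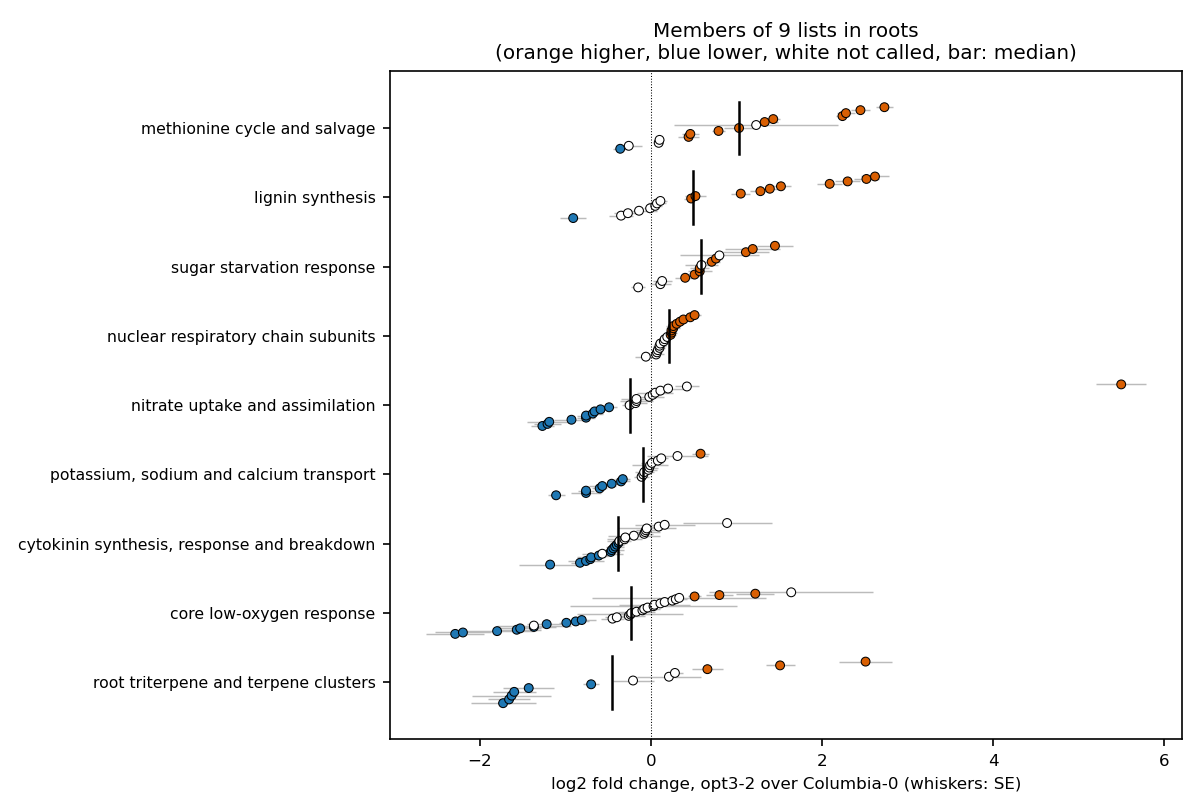
Log2 fold change of opt3-2 over Columbia-0 in roots for each tested member of 9 lists, with SE whiskers. Orange members were called higher, blue lower, white were not called, and the bar is the list's median, 1.03 for the methionine list and -0.39 for the cytokinin list.

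Nitrate uptake and assimilation genes that were called were lower, apart from NRT1.8. Nitrate enters roots through NRT1.1 and the NRT2 transporters, is reduced by nitrate reductase and nitrite reductase, and is loaded into or taken back from the xylem by other transporters. Of 21 tested members 10 were lower and 1 higher (median -0.25), and the count of lower members ranged from 9 to 11 over the alternatives. NRT1.1, the dual-affinity transporter and nitrate sensor, fell from 818, 652 and 704 to 254, 316 and 331 CPM (-1.27 ± 0.13, adjusted p = 4.77e-05). NRT2:1, the main high-affinity transporter, fell from 1612, 1308 and 1526 to 721, 846 and 764 CPM (-0.93 ± 0.20, adjusted p = 0.00888). NIA1, a nitrate reductase, fell from 1444, 1289 and 1331 to 788, 768 and 975 CPM (-0.68 ± 0.12, adjusted p = 0.00275). The replicate groups of these genes did not overlap. Picked after their values were seen, NIR1 (nitrite reductase) fell by 0.76 and NLP7, a transcription factor that senses nitrate, by 0.59 on the log2 scale.

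NRT1.8, which is known to take nitrate back out of the xylem sap and to respond to cadmium, rose from 2.6, 3.24 and 2.09 CPM to 93.7, 119 and 148 CPM. Its log2 fold change was 5.50 ± 0.29 (adjusted p = 2.71e-07), while in leaves it was -1.29, a difference between organs of 6.79 (adjusted p = 5.39e-06). NIA1 also went opposite ways, 1.06 in leaves, with a difference of -1.75 (adjusted p = 6.19e-05). NRT2:1 had a difference of -0.62, which missed the threshold (adjusted p = 0.23). Genes annotated as responding to cadmium, a term that covers many metal and stress genes, had 53 of 235 tested members higher and 21 lower.

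Ammonium and amide genes were mixed, with 5 of 14 higher and 3 lower. AMT1;3, an ammonium transporter, fell from 233, 184 and 198 to 104, 112 and 136 CPM (-0.80 ± 0.12, adjusted p = 7.36e-04). ASN1, the dark- and starvation-induced asparagine synthetase, rose from 38.2, 26.4 and 26 to 91.3, 82 and 71.6 CPM (1.43 ± 0.18, adjusted p = 3.23e-04). GDH2, a glutamate dehydrogenase, rose by 1.07 ± 0.13. ASN1 fell in leaves by 1.16, and the difference between organs was 2.60 (adjusted p = 6.91e-05). With library size alone or without opt3-2 replicate 3 the list held 5 higher and 5 lower members.

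Transport of other ions and of water was lower where it changed, with few exceptions. Of 19 potassium, sodium and calcium transport genes 8 were lower and 1 higher; 5 were lower without Columbia-0 replicate 1, 4 without opt3-2 replicate 2 and 4 with the run-number covariate. SKOR, the channel that releases potassium into the xylem, had 123, 109 and 119 CPM in Columbia-0 and 60.7, 46 and 55.9 CPM in opt3-2 (-1.11 ± 0.10, adjusted p = 1.85e-05). CAX1, a vacuolar calcium exchanger, fell from 41.3, 34.6 and 43.5 to 23, 24.1 and 23.3 CPM (-0.76 ± 0.09, adjusted p = 1.49e-04). Of 22 aquaporins 6 were lower and none higher, for example the tonoplast channel TIP2;3, which fell from 321, 344 and 341 to 200, 228 and 229 CPM (-0.61 ± 0.11, adjusted p = 0.00293); 3 were lower without Columbia-0 replicate 2, without opt3-2 replicate 1, with roots alone or with the run-number covariate. Of 21 phosphate starvation genes 6 were lower and 1 higher (median -0.28), but only 1 was lower with the run-number covariate and 3 with roots alone. The phosphate transporter PHT1;8 had 2.89, 2.49 and 2.61 CPM in Columbia-0 and 0.271, 0.417 and 0.402 CPM in opt3-2 (-2.87 ± 0.29, adjusted p = 4.97e-05). It differed from leaves, where few reads gave 1.40, by -4.27 (adjusted p = 0.00761).

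Calls among sugar starvation and nuclear respiratory chain genes were all higher, while glycolysis and the tricarboxylic acid cycle were mixed. Sugar starvation genes are switched on when cells run short of carbohydrate. Among 14 of them 9 were higher and none lower (median 0.58), and the list summed to 2933, 3042 and 3342 CPM in Columbia-0 and 3603, 4212 and 4852 CPM in opt3-2. Without Columbia-0 replicate 2 the count was 5, the lowest of all alternatives, and none was lower in any. SEN1, a dark-induced rhodanese-like protein, rose from 7.41, 6.5 and 6.14 to 17.9, 24 and 12.8 CPM (1.45 ± 0.21, adjusted p = 6.56e-04). TPS11, a trehalose phosphate synthase-like gene picked after its values were seen, rose by 0.71 ± 0.10. Of 20 nuclear genes for respiratory chain subunits 10 were higher and none lower, but the changes were small (median 0.21). COX5B-1, a subunit of cytochrome c oxidase, had the largest, from 60.2, 66.6 and 63.8 to 86.7, 99.2 and 86 CPM (0.51 ± 0.07, adjusted p = 4.45e-04). Only 5 of these were higher without Columbia-0 replicate 1, without opt3-2 replicate 2, with roots alone or with the run-number covariate, and 6 without Columbia-0 replicate 3. Phloem markers, whose cells carry sugar into roots, had 2 of 8 higher. SUC2, the sucrose loader of companion cells, was one, at 43.5, 41.8 and 50.3 CPM in Columbia-0 and 65.9, 61.7 and 60.6 CPM in opt3-2.

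Glycolysis had 4 of 18 members higher and 2 lower, and the tricarboxylic acid cycle 4 of 24 and 2. LOS2, an enolase, rose from 696, 764 and 728 to 1157, 1392 and 1295 CPM (0.81 ± 0.09, adjusted p = 1.42e-04), and iPGAM2, a phosphoglycerate mutase, from 62.8, 63.7 and 66.6 to 138, 171 and 182 CPM (1.34 ± 0.10, adjusted p = 3.39e-06). PPC1, a phosphoenolpyruvate carboxylase that makes organic acids, rose from 203, 210 and 203 to 400, 695 and 610 CPM (1.47 ± 0.16, adjusted p = 8.29e-05). The 11 genes of that carboxylase, malate and organic acid list split 3 higher and 1 lower. With library size alone the tricarboxylic acid list turned to 1 higher and 4 lower.

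The core low-oxygen genes, which plants induce when roots are short of oxygen, had 10 of 31 tested members lower and 3 higher (median -0.23), with 7 to 13 lower over the alternatives. PDC1, pyruvate decarboxylase, fell from 10.9, 22.6 and 16.6 to 2.65, 4.78 and 3.49 CPM (-2.20 ± 0.33, adjusted p = 9.67e-04). FTM1, a stearoyl-ACP desaturase of the same set, fell from 13.7, 16.4 and 14.1 to 2.87, 3.21 and 3 CPM (-2.29 ± 0.34, adjusted p = 9.39e-04). ADH1, alcohol dehydrogenase, picked after its values were seen, fell from 21.4, 31.8 and 24.9 to 16.2, 12.9 and 13.3 CPM (-0.88 ± 0.15, adjusted p = 0.00219). Replicate groups did not overlap for any of them. AT1G19530 rose, from 29.4, 24.4 and 19.8 to 63.6, 65.9 and 41.5 CPM (1.22 ± 0.22, adjusted p = 0.00322). PDC1 also fell in leaves, by 2.51, whereas FTM1 differed between organs by -2.71 (adjusted p = 0.00619).

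**Figure D3:**
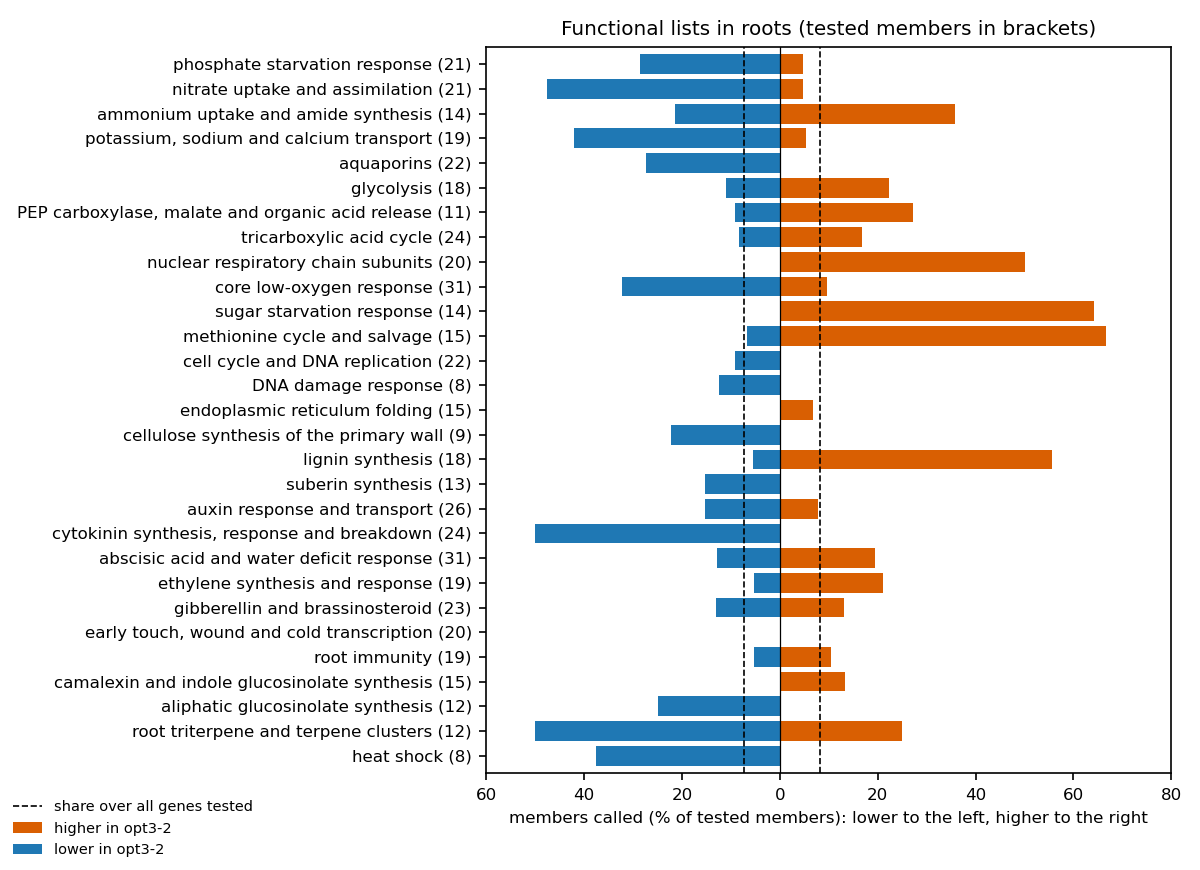
Share of tested members called higher (right, orange) and lower (left, blue) in opt3-2 roots for 29 functional lists, with the number tested in brackets. Dashed lines give the shares over all genes, 8.28% higher and 7.28% lower; the methionine list reaches 66.7% higher and the cytokinin list 50% lower.

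Cytokinin genes were lower throughout where they changed. Cytokinins are hormones made in roots partly in answer to nitrate, sensed by histidine kinases and read out by type-A response regulators. Of 24 tested genes 12 were lower and none higher (median -0.39), across synthesis, transport, sensing, response and breakdown. IPT3, the nitrate-responsive synthesis gene, fell from 15.7, 19.4 and 15.6 to 8.42, 9.6 and 10.6 CPM (-0.83 ± 0.11, adjusted p = 4.82e-04). Picked after their values were seen, the response regulator ARR8 fell from 117, 117 and 91.7 to 64.9, 74.8 and 59.4 CPM (-0.71 ± 0.10, adjusted p = 8.23e-04), and the receptor AHK4 from 113, 108 and 103 to 73.7, 81.2 and 83.9 CPM (-0.44 ± 0.07, adjusted p = 0.00172). None was higher in any alternative, but leaving out Columbia-0 replicate 2 gave 6 lower genes, and 7 were lower without opt3-2 replicate 1, with roots alone or with the run-number covariate. IPT3 was -0.10 in leaves (difference -0.72, adjusted p = 0.00952), while for AHK4 the organs differed by only -0.13 (adjusted p = 0.454). Calls in the other hormone lists went both ways. Auxin had 2 of 26 higher and 4 lower, and GH3.3, which conjugates auxin to amino acids, rose from 0.579, 0.937 and 0.515 to 4.55, 5.72 and 4.94 CPM (2.88 ± 0.28, adjusted p = 3.36e-05). Abscisic acid and water deficit had 6 of 31 higher and 4 lower, ethylene 4 of 19 and 1, gibberellin and brassinosteroid 3 of 23 and 3. Called members of either direction made up 23.1% of the auxin, 32.3% of the abscisic acid, 26.3% of the ethylene and 26.1% of the gibberellin and brassinosteroid list, against 15.6% of all genes, and in the last 3 lists the balance was lost or turned under at least 1 alternative.

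The gene cluster for thalianol, a triterpene that roots make and that is known to act on root bacteria, was lower in all of the members named here, which lie side by side on chromosome 5. Its enzymes are encoded by neighbours between 19428888 and 19461706 (TAIR10.1). THAA1, an acyltransferase, fell from 27.6, 36.8 and 19.4 to 7.26, 9.73 and 9.52 CPM (-1.66 ± 0.25, adjusted p = 8.79e-04). CYP705A5, thalianol desaturase, fell from 49.6, 67.6 and 32 to 7.58, 24.2 and 13.2 CPM (-1.73 ± 0.38, adjusted p = 0.00966). CYP708A2, thalianol hydroxylase, fell by 1.43 ± 0.30 and THAS1, thalianol synthase, from 7.64, 11.1 and 5.24 to 1.35, 4.91 and 1.54 CPM (-1.63 ± 0.46, adjusted p = 0.0345). Replicate 2 was the highest of both genotypes for CYP705A5 and THAS1, and the genotype groups did not overlap. The gene next to THAS1, AT5G48020, did not pass the test (0.03), nor did RABA4C and AT5G47970 on the other side (0.08 and -0.09). Farther out GFA2, past AT5G48020, fell by 0.30 ± 0.08 (adjusted p = 0.0288). This call was lost with roots alone (adjusted p = 0.072) and on leaving out any single root replicate except opt3-2 replicate 1 (adjusted p from 0.0571 to 0.0873). AT5G47940, on the other flank, fell by 0.41 ± 0.07 (adjusted p = 0.00282). Between AT5G47940 and RABA4C AT5G47950, a further acyltransferase, fell from a mean of 50.5 to 15.5 CPM (-1.70 ± 0.17, adjusted p = 3.65e-05). With the run-number covariate CYP705A5 (-1.06, adjusted p = 0.196), CYP708A2 (-0.96, adjusted p = 0.156) and THAS1 (-1.05, adjusted p = 0.364) no longer passed. With roots alone CYP705A5 (adjusted p = 0.0551) and THAS1 (adjusted p = 0.101) did not either, and THAS1 was also lost without Columbia-0 replicate 1 or 2 (adjusted p = 0.074 and 0.137) and without opt3-2 replicate 1 or 3 (adjusted p = 0.0895 and 0.0631). The whole list of terpene cluster genes had 6 of 12 lower and 3 higher, and 3 of each with the run-number covariate. TPS13, a terpene synthase elsewhere in the genome, rose from 15, 17.2 and 13.8 to 37.4, 47.1 and 46 CPM (1.51 ± 0.17, adjusted p = 1.40e-04).

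PYK10, the myrosinase-like beta-glucosidase that fills the ER bodies of roots, had the largest loss in CPM of any called gene, from 5270, 5053 and 5006 to 2984, 3612 and 3353 CPM (-0.62 ± 0.15, adjusted p = 0.0173). Its call was lost without Columbia-0 replicate 1 (-0.60, adjusted p = 0.0533) and with the run-number covariate (-0.55, adjusted p = 0.116). MLP34, a major latex protein-like gene, fell from 2531, 2165 and 2410 to 1359, 1301 and 1249 CPM (-0.86 ± 0.14, adjusted p = 0.00175).

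The highest log2 fold changes outside the iron and copper list, taken over called genes whose log2 CPM averaged 1 or more in root libraries and whose replicate groups do not overlap, were in genes that were nearly silent in Columbia-0 roots. AT1G73120, an F-box protein gene, stood at 1.94, 1.63 and 1.06 CPM in Columbia-0 and 347, 416 and 422 CPM in opt3-2 (7.99 ± 0.19). CRK20, a cysteine-rich receptor kinase, went from 0.0289, 0.134 and 0.0965 to 8.5, 11.6 and 14 CPM (6.96 ± 0.36, adjusted p = 1.97e-07). AT5G38820, annotated as an amino acid transporter, went from 0.839, 1.93 and 0.901 to 87.6, 141 and 144 CPM (6.64 ± 0.33, adjusted p = 1.40e-07). COBL6, a COBRA-like protein, rose by 6.66 ± 0.40, and AT4G17680, of the S-ribonuclease binding protein family, by 6.34 ± 0.32. AT5G55620, uncharacterised, and AT1G52120, a mannose-binding lectin, rose by 7.83 ± 0.37 and 7.69 ± 0.33. AT1G52130, the lectin gene beside AT1G52120, rose by 6.38 ± 0.34. For each of these 8 genes the root effect exceeded the leaf effect, by 4.42 for CRK20 to 8.49 for AT5G55620. Folds of genes with so few reads in Columbia-0 depend on the prior count of the fit.

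By the same rule, which leaves out less abundant genes such as PHT1;8, the lowest log2 fold changes were those of 3 cytochrome P450 genes, a dioxygenase gene, 2 transcription factor genes and a pair of hydroxysteroid dehydrogenase genes. CYP712A2 fell from 6.68, 4.68 and 5.02 to 0.379, 0.353 and 0.494 CPM (-3.73 ± 0.21, adjusted p = 4.29e-07). CYP93D1, its neighbour on chromosome 5, fell from 15.4, 13 and 10.7 to 1.95, 1.57 and 1.36 CPM (-2.99 ± 0.21, adjusted p = 2.04e-06). CYP76G1 fell from 6.34, 4.76 and 6.01 to 0.514, 0.289 and 0.556 CPM (-3.63 ± 0.27, adjusted p = 2.19e-05). AT1G15540, annotated as a 2-oxoglutarate-dependent dioxygenase, fell from 11.2, 9.72 and 9.78 to 1.52, 1.28 and 1.36 CPM (-2.88 ± 0.23, adjusted p = 8.09e-06). AT4G37850, a bHLH transcription factor, fell by 2.72 ± 0.36. AT3G13840, a GRAS transcription factor, fell from 21.5, 17.7 and 18 to 3.38, 2.79 and 3.46 CPM (-2.57 ± 0.22, adjusted p = 1.23e-05). HSD4 and HSD7, hydroxysteroid dehydrogenases, fell by 2.54 and 2.37, but they share 100% of their 50-base windows, so their reads cannot be told apart and they count as one signal.

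Among gene families sorted by function, calls gathered in some and not in others. Glutathione transferases, which conjugate glutathione to reactive compounds, had 20 of 55 tested members higher and 1 lower, with 14 to 22 higher over the alternatives. GSTL1, of the lambda class, rose from 9.61, 9.96 and 8.65 to 349, 478 and 451 CPM (5.50 ± 0.15, adjusted p = 2.99e-09). GSTU27 was the lower one, from 94.6, 88.5 and 79.8 to 48, 58 and 57.1 CPM (-0.69 ± 0.12, adjusted p = 0.00247). Genes annotated to cell redox homeostasis had 19 of 89 higher and 4 lower. NAC transcription factors had 15 of 69 higher and 5 lower; NAC3 (ANAC055), known from drought and jasmonate responses, rose from 1.74, 1.85 and 2.12 to 9.23, 9.99 and 12.4 CPM (2.47 ± 0.17, adjusted p = 1.77e-06). WRKY factors had 11 of 60 higher and 1 lower, or 18 higher with the replicate block and 7 without Columbia-0 replicate 1 or 2. MATE transporters had 10 of 48 higher and 5 lower, class III peroxidases 11 of 64 and 6. UGT75B2, a glucosyltransferase, rose from 2.84, 4.44 and 3.38 to 33.5, 42.1 and 46.4 CPM (3.51 ± 0.21, adjusted p = 7.64e-07). Its family had 11 of 115 higher (9.57%) and 9 lower (7.83%), near the 8.28% and 7.28% of all genes.

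Leucine-rich repeat receptor kinases, which sense peptides, hormones and microbial patterns, had 30 of 147 tested members lower and 3 higher. The changes were mostly small, and only 5 were at least 2-fold lower; the kinase AT1G64210 went from 7.96, 9.56 and 8.68 to 2.9, 3.79 and 4.48 CPM (-1.23 ± 0.18, adjusted p = 7.61e-04). Pentatricopeptide repeat proteins, which edit and process organelle RNA, had 30 of 247 lower and 2 higher, none of them 2-fold. These shares depended on single libraries. Lower receptor kinases numbered 16 without Columbia-0 replicate 2 or opt3-2 replicate 2, 18 without Columbia-0 replicate 1 or opt3-2 replicate 1 and 9 with the run-number covariate. Lower pentatricopeptide genes numbered 11 without Columbia-0 replicate 2, 13 without Columbia-0 replicate 1, 15 without opt3-2 replicate 2, 16 without Columbia-0 replicate 3, 18 without opt3-2 replicate 1 and 5 with the covariate. Genes annotated to DNA replication had 11 of 39 lower and 1 higher, and to rRNA processing 7 of 26 lower and none higher, none of them 2-fold. Annotated groups, here and elsewhere, were not tried under the alternatives. The hand-written cell cycle and DNA replication list had only 2 of 22 lower, and genes annotated to regulation of the cell cycle had no call among 31. Cytosolic ribosomal proteins had 4 of 281 higher and 3 lower, under the background share, although 32 were higher without opt3-2 replicate 3.

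**Figure D4:**
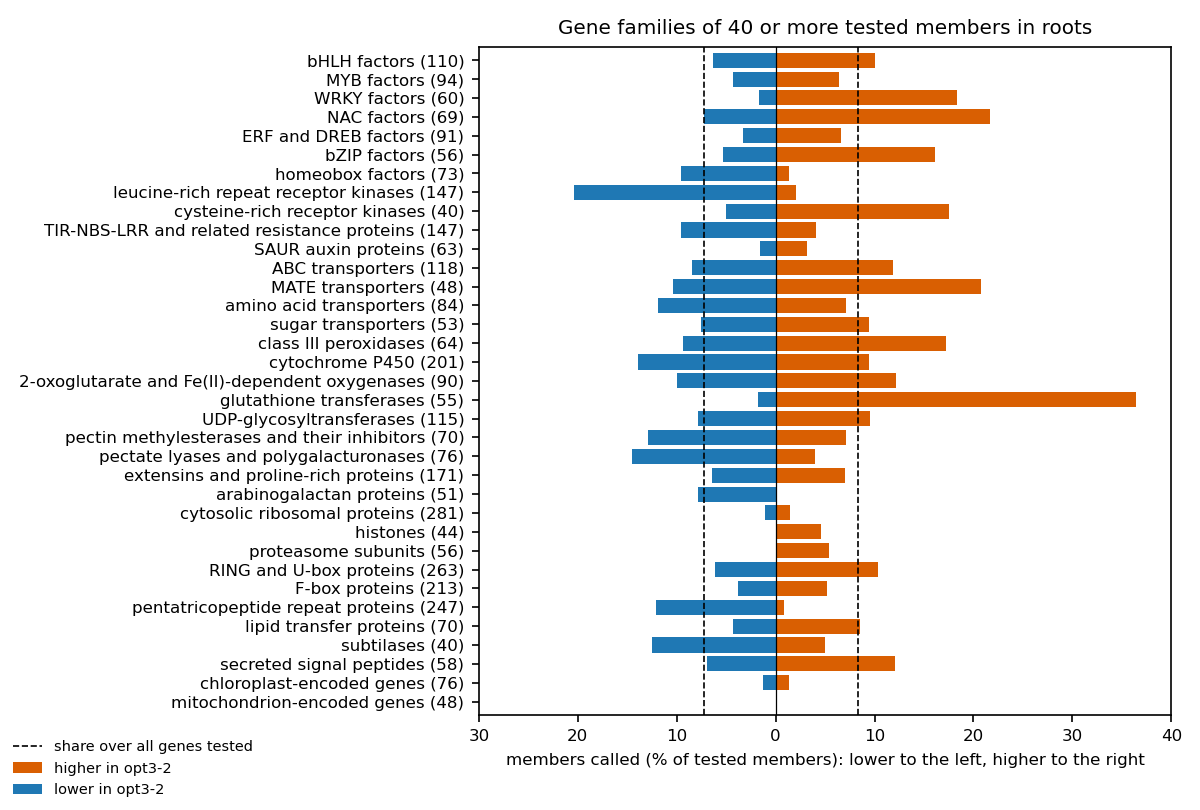
Share of tested members called higher (right) and lower (left) in opt3-2 roots for the 35 families of 40 or more tested members. Dashed lines are the shares over all genes, 8.28% and 7.28%; glutathione transferases reach 36.4% higher, and leucine-rich repeat receptor kinases and pentatricopeptide repeat proteins lie mostly to the left.

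Among cell wall groups other than lignin, lower calls outnumbered higher ones, apart from expansins and extensins. Expansins had 2 of 25 higher and 1 lower. Extensins and proline-rich proteins, the largest of these families, had 12 of 171 higher (7.02%) and 11 lower (6.43%), under the background shares. Primary wall cellulose synthesis had 2 of 9 lower, CESA6, a catalytic subunit, from 400, 410 and 390 to 237, 287 and 319 CPM (-0.51 ± 0.10, adjusted p = 0.00443), and 7 were lower without opt3-2 replicate 3. Suberin synthesis had 2 of 13 lower. Xyloglucan endotransglucosylases, which cut and rejoin wall polymers, had 4 of 28 lower and 1 higher, with 1 to 6 lower over the alternatives. XTH13 fell from 3.3, 3.59 and 3.25 to 0.46, 0.899 and 1.27 CPM (-1.96 ± 0.32, adjusted p = 0.00303). XTH24 rose from 15.6, 10 and 13.1 to 42.5, 40.9 and 35.7 CPM (1.62 ± 0.16, adjusted p = 3.65e-05), and in leaves it fell by 0.83. Pectate lyases and polygalacturonases had 11 of 76 lower and 3 higher, pectin methylesterases and their inhibitors 9 of 70 and 5, and arabinogalactan proteins 4 of 51 and none. Their lower shares were 14.5%, 12.9% and 7.84%, the last near the 7.28% of all genes. Genes called at least 2-fold lower numbered 8, 7 and 4 in these families and 3 among the xyloglucan endotransglucosylases, against 1.07% of all genes. Over the alternatives the lower counts ranged from 4 to 20, 1 to 11 and 0 to 10, and with the run-number covariate they were 5, 1 and 0, when 3 pectin methylesterase genes were higher. Without Columbia-0 replicate 3 they were 4, 3 and 2, and without Columbia-0 replicate 2 they were 6, 2 and 0. Pollen marker genes were lower too, but some of them are pectin methylesterase or polygalacturonase genes by annotation, so the pollen list and these families share members. Of 10 tested pollen markers 6 were lower, the pectin methylesterase VGD1 for instance with 1.01, 3.21 and 5.37 CPM in Columbia-0 and 0, 0.899 and 0.309 CPM in opt3-2. The 10 markers summed to 27.8 to 41.9 CPM in Columbia-0 and 24.2 to 25.6 CPM in opt3-2, and with roots alone none was called. How much of the lower calls in the wall families the pollen genes make up was not tested.

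Early touch, wound and cold genes varied between replicates more than between genotypes. These transcription factors and signalling genes answer within minutes when plants are handled. The 20 genes summed to 416, 1358 and 3096 CPM in Columbia-0 replicates 1, 2 and 3 and to 573, 1048 and 4338 CPM in opt3-2 replicates 1, 2 and 3. Replicate 1 was lowest and replicate 3 highest in both genotypes. None of the 20 was called by edgeR, 3 were higher with the replicate block, and the list's median of 0.68 became -1.18 when opt3-2 replicate 3 was left out and 1.67 when Columbia-0 replicate 3 was. RBOHD, the NADPH oxidase of immune and wound signalling, was also highest in replicate 3 of both genotypes, with 86.4, 77.2 and 158 CPM in Columbia-0 and 211, 266 and 618 CPM in opt3-2. It was called (1.77 ± 0.39, adjusted p = 0.0104), but not with roots alone (adjusted p = 0.0636) or with the run-number covariate (adjusted p = 0.0773). The root immunity list had 2 of 19 higher and 1 lower, or 5 and none with the replicate block, and summed to 583, 578 and 810 CPM in Columbia-0 and 652, 750 and 1539 CPM in opt3-2. The part of the replicate order in these lists was not tested.

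**Figure D5:**
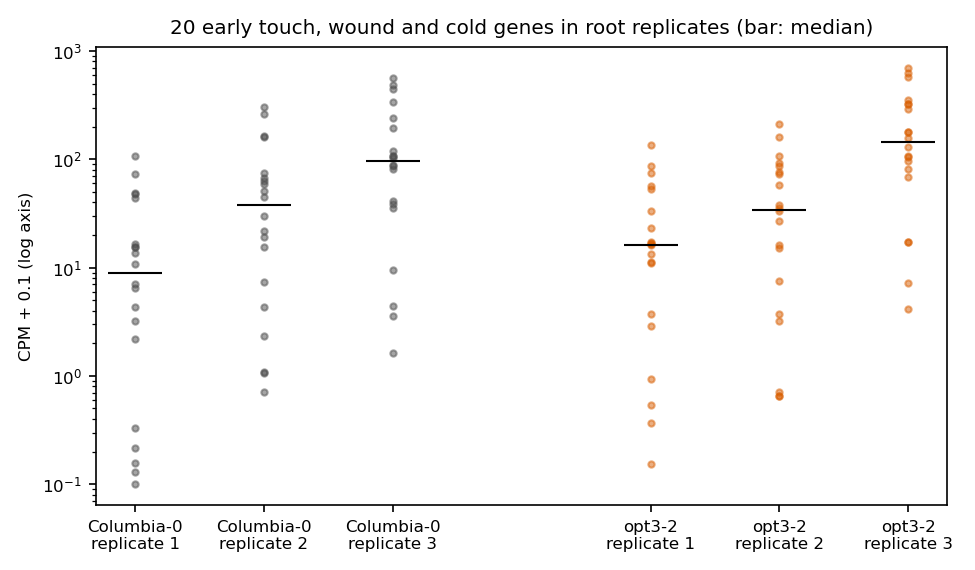
Levels of the 20 early touch, wound and cold genes in each root replicate, as CPM + 0.1 on a log axis; points are genes and bars medians. In both genotypes replicate 3 is highest, with sums of 3096 CPM for Columbia-0 and 4338 CPM for opt3-2.

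Markers of root cell types were mostly not called. None of 3 non-hair, 2 cortex, 9 endodermis, 3 root cap or 4 meristem markers was called, and 1 of 14 xylem and secondary wall markers was lower (median -0.33). The xylem markers summed to 716, 718 and 596 CPM in Columbia-0 and 473, 511 and 584 CPM in opt3-2, and the part of this in the lignin and xylem loading results was not tested. Root hair markers had 1 higher and 1 lower of 13 (median -0.26), and 5 lower without opt3-2 replicate 3. RSL4, the factor that drives hair growth, was the higher one, from 4.05, 4.55 and 3.44 to 9.67, 11.3 and 11.3 CPM (1.42 ± 0.20, adjusted p = 0.00127). ADF8, an actin depolymerizing factor, was the lower one, from 21.8, 25.4 and 22.9 to 16.5, 16.5 and 19 CPM (-0.43 ± 0.10, adjusted p = 0.0147). Photosynthesis markers, a sign of shoot tissue, had no call among 12 and summed to 403, 255 and 365 CPM in Columbia-0 and 549, 336 and 280 CPM in opt3-2.

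Counts of the remaining lists were as follows. Cell cycle and DNA replication had 2 of 22 lower, DNA damage response 1 of 8 lower, endoplasmic reticulum folding 1 of 15 higher, camalexin and indole glucosinolates 2 of 15 higher, aliphatic glucosinolates 3 of 12 lower and heat shock 3 of 8 lower. In the last pair the lower share, 25% and 37.5%, was above the 7.28% of all genes, but it was 1 gene each with the run-number covariate, and 1 aliphatic glucosinolate gene without Columbia-0 replicate 1 or 2 or any single opt3-2 replicate. Of the 3377 called genes 2612 are in none of the lists and families, and 6.72% have no characterised product, against 8.52% of all genes tested.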

How the data were processed

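RNA was sequenced from roots and leaves of both genotypes with Illumina TruSeq libraries, per the labels' protocols. Per the submitters' processing notes the tools were TopHat2 and edgeR and the genome build TAIR10; which program counted reads was not given in the sources used here. In the deposited table are whole-number read counts per gene for 28775 genes, made by the authors with no normalization. It has 36 further columns that match no sample here and were not used. Leaf columns carry the letter S in their names where the sample titles carry L, and S was read as leaf. That reading enters the shared estimate of spread and each value for leaves or for roots minus leaves.

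The 3 runs of a replicate differed by little more than counting noise (chi-square per degree of freedom 1.02 to 1.07, against 19.4 to 48.2 between root replicates) and were summed. Root libraries held 25828387 to 30909804 counts (Columbia-0) and 27451463 to 31065807 counts (opt3-2). Counts were tested with edgeR 4.0.16 (R 4.3.3): TMM factors, filterByExpr, quasi-likelihood F test, 1 mean for each of the 4 groups over 12 replicates, 8 residual degrees of freedom, Benjamini-Hochberg over 21692 genes. SE was derived from the log2 fold change and F, as its size over the root of F.

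Whether libraries kept strand is not given, so overlapping genes cannot be told apart. All opt3-2 replicates carry run numbers 1 to 3, Columbia-0 root replicates 1 and 2 carry 5 to 7 and replicate 3 carries 2 to 4, so run set and genotype cannot be fully told apart. The run-number covariate marks only the set 5 to 7 and does not separate 1 to 3 from 2 to 4. In roots, replicate 3 is then the only Columbia-0 replicate at the covariate level of opt3-2. Root replicates numbered 1 and those numbered 3 deviated together (r = 0.466 and 0.46 over genes). For number 2 r was 0.157, under the 0.182 of Columbia-0 replicate 1 with opt3-2 replicate 2, so pairing was not shown there. The other differently numbered pairs ran from -0.511 to 0.076. The main fit has no term for pairs, and the replicate block is given as an alternative.

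Genes were grouped in 39 lists and, by annotation text, in 40 families; members and lists were chosen with earlier results of these data known, and no list was given a test of its own. Named genes were OPT3, the greatest gains and losses in CPM, the highest and lowest log2 fold changes outside the iron and copper list, and up to 3 called members of a list in each direction and the top called member of a family. Alternatives were RLE, upper-quartile and no factors, 2 other filters, roots alone, the replicate block, a run-number covariate, DESeq2 1.42.0, limma voom 3.58.1, a stricter threshold and leaving out each replicate. Symbols and upstream sequence come from RefSeq TAIR10.1, which matched 28009 identifiers.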

Additional observations from a re-analysis of the deposited data

Results flagged for a closer look

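The results listed here are those whose effect of genotype differed between roots and leaves, tested as the root log2 fold change minus the leaf log2 fold change in the same edgeR fit with Benjamini-Hochberg adjustment. This held for 3503 of 21692 genes, or 16.1%, and a call in one organ alone is not a difference between organs. For OPT3 the difference was 1.99, since its transcript was lower by more in leaves (-2.40) than in roots (-0.41). Among methionine genes the root effect exceeded the leaf effect by 2.41 for SAM1, 2.77 for MTI1, 1.97 for MTK, 2.00 for ARD2 and 1.54 for DEP1. Among phenylpropanoid genes it did so by 2.00 for PAL1, 3.09 for PAL2, 2.57 for 4CL2, 1.16 for C4H, 1.46 for C3H1 and 1.08 for CCOAOMT1. Other genes higher in opt3-2 roots had differences of 2.67 for GLP5, 3.21 for GSTL1, 2.45 for XTH24, 3.04 for NAC3, 2.50 for GH3.3, 2.00 for RBOHD and 1.13 for SUC2. For the genes with the largest folds the differences were 6.29 for AT1G73120, 8.49 for AT5G55620, 7.29 for AT1G52120, 4.42 for CRK20, 7.85 for COBL6, 7.24 for AT5G38820, 5.92 for AT1G52130 and 6.74 for AT4G17680. In nitrogen and carbon metabolism and the low-oxygen set, root effects were above leaf effects by 6.79 for NRT1.8, 2.60 for ASN1, 1.03 for GDH2, 0.84 for PPC1, 0.52 for LOS2, 1.11 for iPGAM2, 1.57 for SEN1, 0.63 for TPS11 and 2.00 for AT1G19530. Nitrate, ammonium, phosphate and ion transport genes that fell in roots had root effects below those in leaves, with differences of -1.68 for NRT1.1, -1.75 for NIA1, -0.57 for NIR1, -0.81 for NLP7, -1.26 for AMT1;3, -4.27 for PHT1;8, -1.33 for SKOR and -0.82 for CAX1. The same direction held with -2.09 for FAH1, -2.71 for FTM1, -0.79 for ADH1, -0.72 for IPT3, -0.68 for ARR8, -0.78 for PYK10, -1.15 for MLP34 and -0.92 for GSTU27. The strongly lower genes had -2.63 for CYP712A2, -3.00 for CYP93D1, -5.11 for AT1G15540, -4.09 for HSD4 and -3.61 for HSD7. AT5G47940, near the thalianol genes, had -0.56. Groups of 3 replicates were too small for a check of single outlying samples.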

How the results depend on the processing

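No gene called in the TMM fit changed sign in any alternative. Called genes numbered 3377 (1797 higher, 1580 lower); with roots alone 1973 (1134 and 839), with the run-number covariate 1632 (1103 and 529) and at an adjusted p of 0.01 1572 (1023 and 549). With library size alone 3013 were lower, and all genes shifted by -0.09 (log2). Genes at least 2-fold lower, 233 in all, numbered 122 with the stricter filter, 153 with the covariate and 140 at 0.01. Effects that differed between roots and leaves numbered 1590 at 0.01. With the replicate block 3563 genes were called (1964 and 1599), 2940 of them shared. The block took the call from none of the 78 called genes tried by name, and OPT3 still did not pass. Other named genes without a call were not tried.

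Leaving out 1 root replicate gave 2074 (Columbia-0 replicate 2) to 4231 (opt3-2 replicate 3) calls, with 2237 for Columbia-0 replicate 1, 1251 to 2180 higher and 823 to 2051 lower (914 without Columbia-0 replicate 1, 973 without opt3-2 replicate 2), 520 to 611 at least 2-fold higher and 183 to 268 lower; effects differing between organs numbered 2625 to 4540, and OPT3 stayed between -0.52 and -0.32. With the covariate OPT3 was -0.65 and passed. Of the 78 called genes tried by name, 7 lost the call in at least 1 alternative. Summed CPM of genes at least 2-fold higher rose 4.36-fold, or 4.09-fold without TMM factors. The causes were not tested. Replicates number 3 a side, which limits what small changes can be told.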

Other observations

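Genes annotated to defence against fungi, a group not described above, had 16 of 60 tested members higher in opt3-2 roots (26.7%) and none lower. They summed to 3074, 3094 and 3226 CPM in Columbia-0 and 3737, 3912 and 4706 CPM in opt3-2, and the replicate groups of these sums did not overlap. Other defence terms showed no such share. Defence response had 26 of 297 higher (8.75%) and 28 lower (9.43%), and defence against bacteria 8 of 91 higher (8.79%) and 4 lower (4.4%). Innate immune response had 6 of 104 higher (5.77%) and 7 lower (6.73%). Genes annotated to oxidative stress had 25 of 141 higher and 10 lower. RING and U-box proteins, most of them ubiquitin ligases, had 27 of 263 higher (10.3%) and 16 lower, near the 8.28% and 7.28% of all genes. Homeobox factors had 7 of 73 lower (9.59%, also near that share) and 1 higher, and 2 were lower without Columbia-0 replicate 1 or with the run-number covariate. Cytochrome P450 genes had 28 of 201 lower and 19 higher, but 11 and 14 with the run-number covariate, so the balance turned. Genes encoded in the mitochondrion had none of 48 called and those in the chloroplast 1 of 76 in each direction, but few reads fell on them. The mitochondrial genes summed to 247, 231 and 199 CPM in Columbia-0 and 249, 419 and 297 CPM in opt3-2. The chloroplast genes summed to means of 50.1 and 64.6 CPM. The lack of calls therefore says little about these genes.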
